A study of Caenorhabditis elegans with 2 samples.

Results

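The 8 genes described here are heterochronic genes of Caenorhabditis elegans, listed by name: daf-12, lin-14, lin-28, lin-29, lin-41, lin-42, lin-46 and hbl-1. All 8 were found among the 19973 nuclear protein-coding genes of the Ensembl WBcel235 annotation. For each gene, every deposited ChIP-seq region was taken whose summit fell between 5000 bp upstream of the gene and its end. That window held 84 of the 26787 regions of the list made from both replicates together, the pooled list. It also held 1 of the peaks that the authors kept after the irreproducible discovery rate (IDR) procedure. Of those peaks 213 lay on nuclear chromosomes, and the full IDR list is longer. Cuts and dotted lines at the number of IDR peaks, and the lowest and median signal of IDR peaks, refer to the full list.

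Chromatin immunoprecipitation followed by sequencing (ChIP-seq) was performed on NHR-237, a nuclear hormone receptor of the worm, in whole L4 larvae, the last larval stage. There was 1 group with 2 biological replicates, each a mixed-sex pool of larvae. Both came from strain OP228, of genotype unc-119(ed3) III with the transgene wgIs228, which adds GFP and FLAG to the C terminus of NHR-237. No untagged strain and no other stage was analysed here, and whole larvae give a sum over all tissues. Neither read depth nor read counts are contained in the lists, so no value below carries a counting error, and the replicates' lists, each of 30000 regions, stand in for the spread.

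Heterochronic genes set the order in which larval cells take on the fates of successive stages. LIN-14, LIN-28 and HBL-1 promote early fates and are turned down by microRNAs of the lin-4 and let-7 families. LIN-41 holds back the adult fate until let-7 lowers it, LIN-29 then drives the switch to adult, and DAF-12, a steroid-hormone receptor, links the choice between dauer arrest and growth to these microRNAs.

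A region was described by the signal the authors gave it and by its rank by that signal in its own list, where rank 1 is the strongest. Nothing in the sources states the scale of the signal, so values were set side by side only within a list. In the pooled list the median signal was 9.42, and the IDR peaks, which are its strongest regions, started at 31.0. The list includes background by design, so a region of low rank does not by itself show binding. Since the genes were named with earlier results of these data known, counts over the 8 are given beside the same counts over all genes, with no test.

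Some of the regions described below are shown here with 100 bp on each side of the summit, on the strand of the gene, from the RefSeq WBcel235 genome. For each of 5 genes this is the strongest region clear of untranslated sequence, shown so that base composition and motif matches can be read beside the ranks. Capitals mark matches, on either strand, to AGGTCA or AAGTCA or AGTGCA (half-sites), to GAGAGA or GCGCGC (repeats), to CTGCGTC, or to TGATAA or TTTCAG, with adjoining and overlapping matches running together. The hbl-1 region held none of the 8 motifs. Neither did the strongest lin-41 region, of rank 425 and 52.7% GC, which is not printed though stronger than those of lin-14 and hbl-1.
daf-12, the IDR peak, chrX:10637524-10637724, plus strand: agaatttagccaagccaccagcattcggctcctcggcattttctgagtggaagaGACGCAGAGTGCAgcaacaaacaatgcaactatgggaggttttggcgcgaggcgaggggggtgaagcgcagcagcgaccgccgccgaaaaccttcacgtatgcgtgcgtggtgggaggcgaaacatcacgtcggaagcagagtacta
lin-42, region of rank 407, chrII:1246959-1247159, minus strand: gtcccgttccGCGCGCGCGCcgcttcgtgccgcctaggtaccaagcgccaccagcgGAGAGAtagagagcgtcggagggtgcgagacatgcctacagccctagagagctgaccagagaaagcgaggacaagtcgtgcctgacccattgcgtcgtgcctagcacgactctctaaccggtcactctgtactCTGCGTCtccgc
lin-29, region of rank 352, chrII:11928927-11929127, minus strand: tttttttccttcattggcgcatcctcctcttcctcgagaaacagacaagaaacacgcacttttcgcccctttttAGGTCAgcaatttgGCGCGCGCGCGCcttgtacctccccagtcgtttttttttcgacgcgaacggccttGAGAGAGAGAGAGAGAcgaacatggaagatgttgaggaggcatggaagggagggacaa
lin-14, region of rank 1160, chrX:11473262-11473462, plus strand: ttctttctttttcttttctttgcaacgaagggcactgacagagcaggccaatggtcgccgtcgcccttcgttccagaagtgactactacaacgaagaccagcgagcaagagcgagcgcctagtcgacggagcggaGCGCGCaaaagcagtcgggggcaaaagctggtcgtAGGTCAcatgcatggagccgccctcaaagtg
hbl-1, region of rank 912, chrX:5820255-5820455, plus strand: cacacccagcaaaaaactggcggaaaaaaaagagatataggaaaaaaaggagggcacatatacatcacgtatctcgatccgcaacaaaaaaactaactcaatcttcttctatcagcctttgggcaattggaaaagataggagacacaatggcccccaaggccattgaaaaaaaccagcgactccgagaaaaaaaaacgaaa
These windows differ in base composition. GC content was 63.2% in the lin-42 window, 56.7% in daf-12, 56.2% in lin-14, 51.2% in lin-29 and 40.8% in hbl-1, where the median of the nuclear pooled summits was 35.3%.

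Of the 8 genes, daf-12 alone held an IDR peak, against 1.88% of all genes and 4.01% of the 374 genes with windows of 20000 to 40000 bp, the class of daf-12. Among the 49 X-linked genes of that class the share was 6.12%. The peak (chrX:10637454-10637793) lay in an intron, 1716 bp downstream of the 5′ end of the gene (chrX:10635908-10666875, WBGene00000908), and outside the promoter window of 1000 bp upstream to 200 bp downstream of any of its 9 annotated 5′ ends. Its signal was 38.0, which ranked 143 in the pooled list. The region that matched it ranked 118 in replicate 1 and 341 in replicate 2. Cut to as many regions as there are IDR peaks, the list of replicate 1 kept it and that of replicate 2 did not, and its signal fell below the median of 41.7 of the IDR peaks. The nearest 5′ end of a protein-coding gene was that of daf-12, and no other protein-coding gene lay in the window.

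The rest of daf-12 carried a scatter of weaker regions. Its window of 35968 bp held 17 pooled regions, 12 of them in introns, 2 in coding exons, 2 in 3′ UTR and 1 upstream. The second strongest ranked 862 (signal 19.9), lay in the 3′ UTR 977 bp before the end of the gene, and matched rank 336 in replicate 1 and no region of replicate 2. The next 4 by rank, intronic and 3613 to 11820 bp from the start, ranked 1361 (signal 17.5), 1793 (16.3), 2375 (15.3) and 2596 (15.0), and each had a match in both replicates. The matching ranks ran from 3708 to 14199 in replicate 1 and from 633 to 4631 in replicate 2. The single upstream region, 2235 bp before the gene, ranked 7108. At daf-12 the peak near the start thus had a signal well above every other region of the gene.

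**Figure D1:**
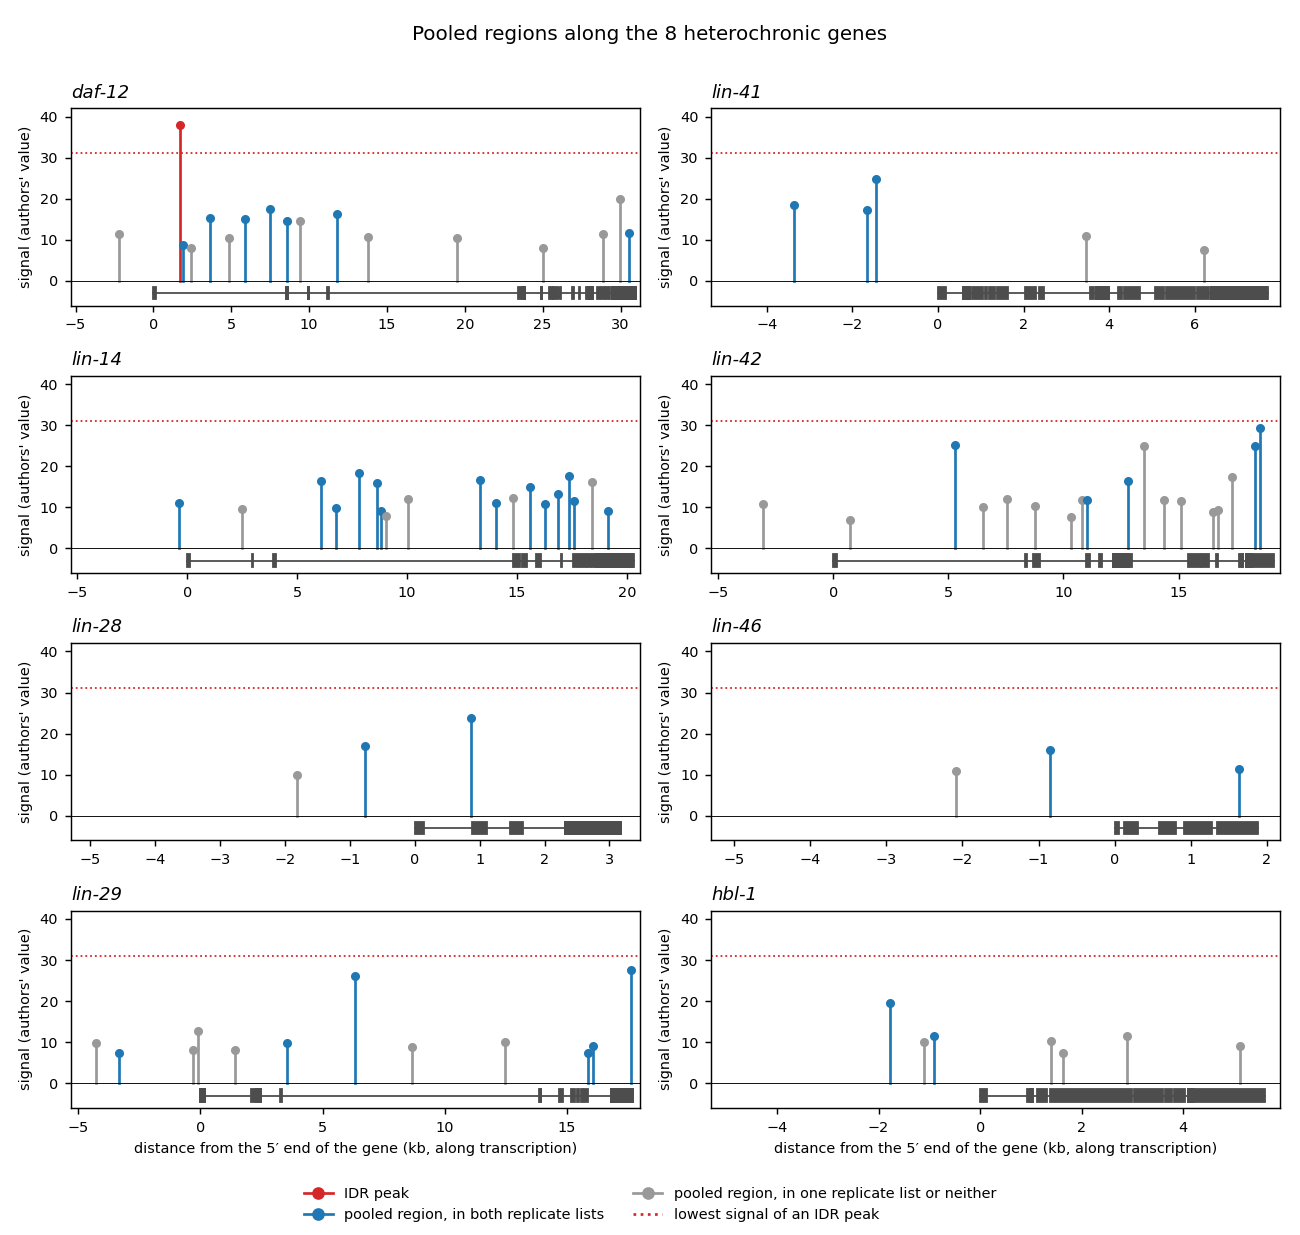
Signal of every pooled region (vertical, the authors' value) against distance of its summit from the 5′ end of the gene in kb along transcription, for the 8 genes; dark boxes below 0 are exons of all transcripts. Only the daf-12 peak, at 38.0, stands above the dotted line at 31.0, the lowest signal of an IDR peak, while lin-14 and lin-42 carry many weaker regions in their bodies.

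The other 7 genes had no IDR peak, and 5 of them held a pooled region of rank 1000 or better. With daf-12, such a region was present in 6 of the 8 windows (daf-12, lin-42, lin-29, lin-41, lin-28 and hbl-1), against 7.45% of all genes. By window length the share of all genes was 6.55% under 10000 bp, 11.2% from 10000 to 20000 bp and 17.4% from 20000 to 40000 bp. The 1000 strongest regions of replicate 1 fell in 5 of the 8 windows, with lin-14 in place of lin-29 and hbl-1, against 7.43% of all genes. Those of replicate 2 fell in 7, every member except lin-42, against 7.59%. Only daf-12, lin-28 and lin-41 had such a region in all 3 lists, and at lin-28 the one of replicate 2 was another region than that of replicate 1.

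lin-42, which encodes a protein related to the circadian regulator Period and keeps larval molts in rhythm, held 4 of the 11 member regions of rank 1000 or better. They ranked 268 (signal 29.2), 407 (25.1), 420 (24.9) and 422 (24.9). The first and last overlap each other in the 3′ UTR, 589 and 816 bp before the end of the gene (chrII:1233236-1252359, minus strand). By overlap both matched a region of rank 81 in replicate 1 but only one of rank 11279 in replicate 2. Replicate 1 also had a region of rank 534 there, 18269 bp from the start. It lay nearer the summit of the region of rank 422 (18307 bp) than the region of rank 81 did (18503 bp). The region of rank 407, in an intron 5300 bp from the start, matched rank 630 in replicate 1 and rank 2392 in replicate 2. The region of rank 420, also intronic, matched rank 180 in replicate 1 and none in replicate 2. Of all 4, replicate 1 thus held the higher rank or the only match. A further pooled region of rank 895 had its summit 107 bp past the end of the gene and so outside the window.

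lin-29, which encodes the zinc finger factor of the larval-to-adult switch, had regions of rank 304 (signal 27.7) and 352 (26.2). Both had the maximum −log10 q of the pooled list, 2.07, which all IDR peaks and the lin-42 regions of rank 268 and 407 had too. With the daf-12 peak, 5 member regions in 3 genes reached that value, against 3.26% of all genes with such a region and 7.22% of those with windows of 20000 to 40000 bp. The stronger lin-29 region lay in the 3′ UTR 65 bp before the end of the gene (chrII:11917642-11935343, minus strand), where the nearest 5′ end was that of hmg-12, 1194 bp away, which encodes an HMG-type DNA-binding protein. It matched rank 1505 in replicate 1 and 1006 in replicate 2. The region of rank 352, in an intron 6316 bp from the start, matched ranks 9848 and 511. Replicates thus placed the first region more alike than the second.

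At the remaining genes with a region of rank 1000 or better, it lay upstream of the gene or of an annotated 5′ end. lin-41, a let-7 target that encodes a TRIM-family RNA-binding protein (chromosome I, 9334800 to 9342496), had its strongest region 1448 bp upstream, with rank 425 (signal 24.8), rank 310 in replicate 1 and rank 378 in replicate 2. These were the closest replicate ranks of the 8 strongest regions, but the 2 summits differed. That of replicate 1 lay 1616 bp upstream and that of replicate 2 1417 bp upstream. An overlapping pooled region of rank 1428, at 1649 bp upstream, took the same matches. lin-28, which encodes an RNA-binding protein that blocks let-7 maturation (chromosome I, 8407630 to 8410804), had a region of rank 484 (signal 23.8) that was intronic for its longest transcript and 21 bp upstream of its second annotated 5′ end. That region matched rank 468 in replicate 1 and 1611 in replicate 2. hbl-1, which encodes a zinc finger factor related to fly Hunchback (chromosome X, 5822142 to 5827755), had a region of rank 912 (signal 19.6) at 1787 bp upstream. There the replicates parted, with rank 5142 in replicate 1 and 238 in replicate 2.

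In the pooled list lin-14 and lin-46 had the weakest maxima, which did not hold in each replicate's list. The best rank in the lin-14 window was 506 in replicate 1 and 556 in replicate 2. In the lin-46 window it was 4822 and 821. lin-14, the classic lin-4 target, which encodes a nuclear protein of early larval fates (chromosome X, 11465560 to 11485871), had 19 regions, the most of any member, but none above rank 1160 (signal 18.3). That region lay in an intron 7802 bp from the start and matched rank 928 in replicate 1 and 20600 in replicate 2. A pooled region of rank 1093 had its summit 104 bp past the end of lin-14, outside the window. lin-46, which encodes a gephyrin-like protein that acts downstream of lin-28 (chromosome V, 12968855 to 12970730), had 3 regions. The strongest ranked 1916 (signal 16.0), 854 bp upstream, matched ranks 4822 and 25718, and lay 19 bp from the 5′ end of the neighbouring gene R186.8. For all 3 lin-46 regions the nearest 5′ end belonged to another gene, R186.3, R186.8 or pnn-1.

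**Figure D2:**
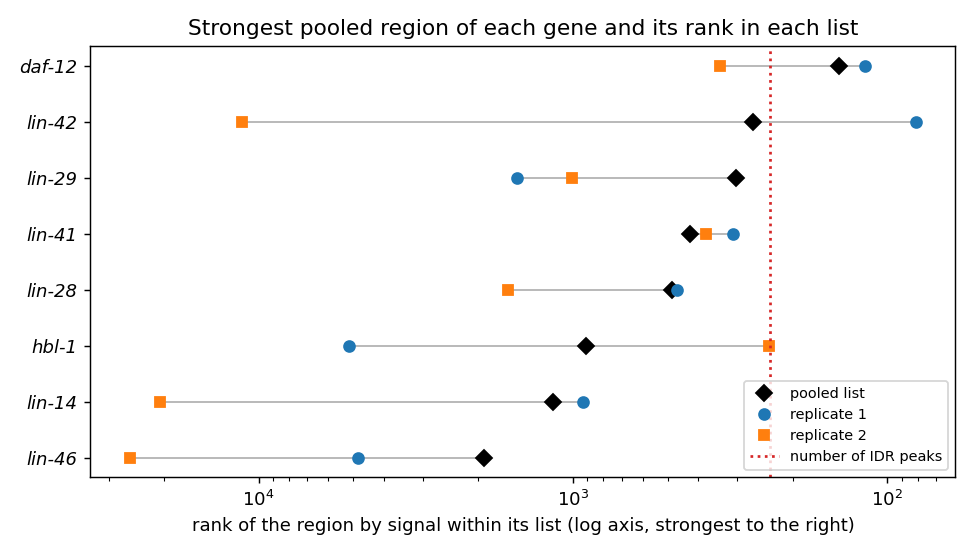
Rank by signal (log axis, strongest to the right) of the strongest pooled region of each gene in the pooled list and of the matching region in each replicate. The dotted line marks the number of IDR peaks; the ranks of lin-41 lie close together (310 to 425), while those of lin-42 run from 81 to 11279.

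Replicate support was uneven across the 84 regions. A matching region, by 1 bp of overlap, was found in both replicates' lists for 42 of them (50%), against 29.6% of the 26760 nuclear pooled regions. The number depended on the matching rule, and was 30 by 50% reciprocal overlap (35.7% against 19.5% of nuclear regions), 23 by summits within 100 bp (27.4% against 13.1%) and 16 among the 10000 strongest regions of each replicate (19.05% against 7.54%). By 1 bp of overlap, only replicate 1 matched 25, only replicate 2 matched 16, and 1 region in lin-42 had no match. lin-14 had the largest number in both lists, 14 of 19, followed by daf-12 with 8 of 17 and lin-29 with 6 of 12. lin-42, with 5 of 18, had fewer. Overlapping pooled regions could share a match, so these counts are not of separate places. The daf-12 regions of rank 143 and 16491, for example, matched the same region in each replicate. Among the 11 member regions of rank 1000 or better 9 were in both lists (81.8%), and among all 974 such nuclear regions 89.2% were. The shares over all 84 regions are not matched for rank, whose median was 6967.5 for them and 13394 for the pooled list. Over the 42 regions in both lists Spearman's rho between the replicates' ranks was 0.195, a description in which overlapping regions can share a match; it was 0.17 over all nuclear pooled regions in both lists.

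The members had more pooled regions than their window length alone would give. In a negative binomial fit over all 19973 genes, the number of regions rose with window length to the power 1.14, with 2.75 regions fitted for an autosomal window of 10000 bp and 0.961 times as many on X. The 8 windows held 84 regions where 44.0 were fitted, a ratio of 1.91. Some of these 84 overlap, and merging them leaves 72 separate places, with 16 in lin-14, 15 in lin-42 and 5 in hbl-1. The fit counted overlapping regions unmerged for all genes. All 8 genes were above their fitted number, against 45.6% of all genes, whose median ratio was 0.881. The excess was uneven: lin-14 (19 regions, ratio 2.49), hbl-1 (7, ratio 2.48) and lin-42 (18, ratio 2.39) stood at the 99.4th, 96.9th and 99.1st percentile of the residuals. lin-29 (12, ratio 1.71), lin-46 (3, ratio 1.68) and daf-12 (17, ratio 1.49) lay at the 91.7th, 80.7th and 87.4th. lin-41 (5, ratio 1.38) and lin-28 (3, ratio 1.37) lay at the 76.7th and 73.5th percentile. The order depended on the window, since with 2000 bp upstream in place of 5000 bp the ratio of lin-28 was 2.13 and that of hbl-1 3.35. With so few regions, single windows such as those of lin-28, lin-41 and lin-46 differ from the fit by fewer than 2 regions.

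The excess was present in both replicates' own lists. Fitted in the same way, the ratio was 2.51 in replicate 1 and 2.60 in replicate 2 for lin-14, and 1.91 and 1.90 for lin-29. It was 1.60 and 1.30 for daf-12, 1.62 and 1.5 for hbl-1, 1.24 and 1.26 for lin-41, and 2.05 and 2.03 for lin-28. lin-42 and lin-46 varied most, with 1.90 and 1.27 for lin-42 and 1.5 and 2.44 for lin-46. All 16 values were above 1, but every member is counted once per replicate, so they are not 16 separate observations. The pooled list was made from the same replicates, so they are not independent of its excess either. The share of all genes above 1 in the replicate fits is not given here. In the pooled list it was 45.6%.

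**Figure D3:**
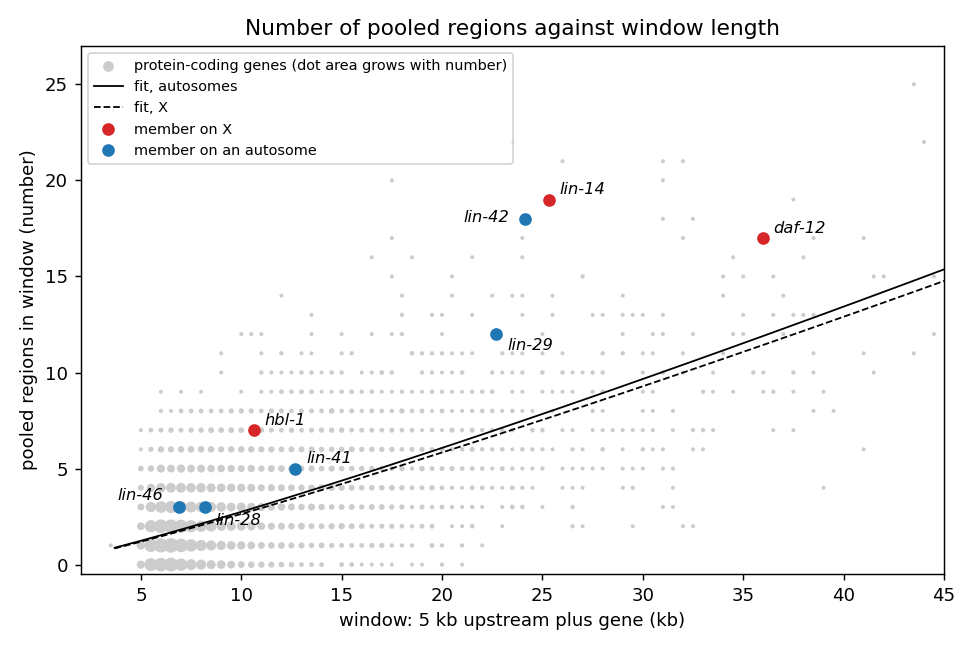
Number of pooled regions in a window against window length (kb, up to 45) for all genes (grey) and for the members, with the fitted lines for autosomes and X. All 8 members lie above the lines, lin-14 (19 regions), lin-42 (18) and hbl-1 (7) farthest in proportion.

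As a density, the members had 5.74 pooled regions per 10000 bp of window, 6.15 in the list of replicate 1 and 5.60 in that of replicate 2, where all genes together had 2.69 in the pooled list. Density ran from 7.51 in lin-14 and 7.46 in lin-42 through 6.60 in hbl-1, 5.29 in lin-29 and 4.73 in daf-12 to 4.36 in lin-46, 3.94 in lin-41 and 3.67 in lin-28. The order was not the same in each replicate's list. lin-14 and lin-42, next to each other in the pooled list, had 21 and 22 regions and 16 and 10 regions in the lists of replicates 1 and 2, which do not overlap. lin-29 had 15 and 14, daf-12 had 20 and 16, and hbl-1, lin-41 and lin-28 each had 5 and 5. lin-46 had 3 and 5. Long and short genes were both above the median of 2.41 over all genes. daf-12, the longest, was not the densest.

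By place, 46 of the 84 regions were intronic (54.8%), 17 upstream (20.2%), 13 in coding exons (15.5%), 7 in 3′ UTR (8.33%) and 1 in 5′ UTR (1.19%). Introns make up 54.6% of the bases in the members' windows, the upstream stretch 27.3%, coding exons 11.1% and 3′ UTR 5.48%. The intron share of regions was thus close to its share of bases, the upstream share lower, and those of coding exons and 3′ UTR higher. Over all genes the upstream stretch makes up 60.8% of the bases. Per 10000 bp of each kind, the members had 5.75 regions in introns, against 2.87 over all genes. Coding exons had 8.02 against 2.18, 3′ UTR 8.71 against 4.17, and the upstream stretch 4.25 against 2.70. Of the 11 regions of rank 1000 or better, 5 were in introns, 4 in 3′ UTR and 2 upstream. The lin-42 regions of rank 268 and 422, both in 3′ UTR, overlap and so merge to the same place. Replicate 1 had regions of rank 81 and 534 there. A split by place of all genes' regions of that rank is not given here, so these counts have no background. Promoter windows held 14 of the 84 (16.7%), against 20.6% of the regions in all genes' windows. The regions of the members were therefore denser in every compartment with more than 1 region, and most lay inside the genes.

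GC content around the members' summits was higher than over all nuclear pooled regions. The same windows around the members' 84 summits had a median GC content of 41.3%, against 35.3% for all nuclear pooled regions and 44.8% for the 213 nuclear IDR peaks. Its part in the number of regions was not tested.

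Sequence matches in these windows varied by motif, and each is a description only. AGTGCA, a half-site known for DAF-12 itself, occurred around 13 of the 84 summits (15.5%), in 6 of the 8 genes, against 6.83% of the 26760 nuclear pooled summits and 8.92% of the nuclear IDR peaks. The daf-12 peak was among them. AGGTCA, the half-site of many nuclear receptors, occurred around 8 (9.52% against 5.12% of all and 7.04% of nuclear IDR peaks). Among them were the regions of rank 484 in lin-28, 352 in lin-29 and 1160 in lin-14. The variant AAGTCA occurred around 1, in lin-46 (1.19% against 8.78% of all and 6.57% of nuclear IDR peaks).

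The repeat GAGAGA was found around 19 summits (22.6% against 13.4% of all nuclear summits and 41.3% of nuclear IDR peaks), 5 of them in lin-29, where it runs on as a longer repeat in the region printed above. GCGCGC was found around 5 (5.95% against 1.98%, and 14.55% of nuclear IDR peaks), including the printed regions of lin-29, lin-42 and lin-14. CTGCGTC was found around 3 (3.57% against 2.68%, and 16.43% of nuclear IDR peaks), among them the daf-12 peak and the printed lin-42 region. TTTCAG, the splice acceptor sequence, was at 32.1% against 35.3%, and TGATAA, the site of intestinal GATA factors, at 15.5% against 16.6%. Among nuclear IDR peaks these were at 18.31% and 10.33%.

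The 3 genes whose strongest ranks were most like those of daf-12 over the pooled and both replicate lists were Y5F2A.4, atg-7 and klc-1, among 13936 genes with a region in all lists. All 3 are neighbours on chromosome IV whose windows share 1 IDR peak, of rank 146 in the pooled list, 119 in replicate 1 and 368 in replicate 2. The summed difference in log10 rank was 0.0458. Their windows, of 7316 to 7498 bp, held 3 or 4 pooled regions each, where that of daf-12 held 17.

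Other genes of larval timing, listed from general knowledge of the pathway, were described beside the members. Of 20 such protein-coding genes 6 had an IDR peak in the window, against 1.88% of all genes and 2.62% of those with windows of 10000 to 20000 bp; the windows of the 20 ran from 5985 to 26764 bp. puf-9, a Pumilio-family RNA-binding protein gene, had the strongest peak (chrX:5841149-5841488), with signal 81.2 and rank 42, rank 55 in replicate 1 and 44 in replicate 2, at 273 bp upstream. nhl-2, which encodes a TRIM-family cofactor of microRNA complexes, had a peak of rank 47 (signal 74.7, ranks 44 and 94) at 834 bp upstream, in a stretch shared with tag-340, whose 5′ end was nearer, at 589 bp. ain-1, which encodes the GW182-like partner of Argonaute, had one of rank 60 (signal 63.3, ranks 74 and 48) at 936 bp upstream. lin-66, a regulator of lin-28, had one of rank 218 (signal 32.2, ranks 432 and 218) at 454 bp upstream.

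The remaining peaks of that list were at kin-20 and din-1. kin-20, which encodes a casein kinase related to fly Doubletime, had an intronic peak of rank 195 (signal 33.8, ranks 128 and 943). din-1, the gene of a co-repressor that binds DAF-12, had 2 peaks, of rank 209 (signal 32.8) and 216 (signal 32.3), at 765 and 2402 bp upstream. Among the IDR peaks at or above the median signal only puf-9, nhl-2 and ain-1 remained, and their ranks were 94 or better in each replicate. With the list of replicate 1 cut to as many regions as there are IDR peaks, puf-9, nhl-2, ain-1 and kin-20 had one, against 1.9% of all genes. With that of replicate 2, 6 genes had one, the same as in the IDR list but with daf-36 in place of kin-20, against 1.92%.

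Another 5 of the 20 had a region of rank 1000 or better without an IDR peak. In all 11 of the 20 had such a region, against 7.45% of all genes. The share was 11.2% of all genes with windows of 10000 to 20000 bp. nhr-85 (rank 243) and nhr-23 (rank 336) encode nuclear receptors, apl-1 (561) the amyloid precursor-like protein and myrf-1 (563) a membrane-bound factor of larval development. daf-36 (869) encodes an oxygenase in the synthesis of the DAF-12 ligand. The nhr-85 region lay in its 3′ UTR and matched ranks 302 and 418. The remaining 9 genes had their strongest region at ranks 1009 (dre-1) to 20737 (nhr-25), among them daf-9 at rank 7599, whose product makes the DAF-12 ligand, and alg-1 at rank 2913, which encodes an Argonaute of the microRNA pathway and whose region had no match in replicate 2. The median of the strongest rank was 716 for the 20 genes and 454.5 for the 8 members, against 7468.5 for all genes with a region. This comparison is not matched for window length, whose median was 10513.5 bp for the 20 genes and 7027 bp for all genes. Windows of the 8 members ran from 6876 bp (lin-46) to 35968 bp (daf-12). Of all genes with windows of 10000 to 20000 bp, 50.9% had a region of rank 5910 or better. For windows of 20000 to 40000 bp, 51.3% had one of rank 3127 or better.

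None of the 6 RNA genes of the pathway had an IDR peak, against 1.71% of the protein-coding genes with windows under 10000 bp. Of lin-4, let-7, mir-48, mir-84, mir-241 and the long RNA gene lep-5, placed by their RefSeq coordinates, 2 had a region of rank 1000 or better in the window, against 6.55% of the protein-coding genes with windows under 10000 bp, the class of all 6. let-7 had one of rank 327 (signal 26.9, ranks 359 and 1823) at 1849 bp upstream of the annotated gene, 133 bp from the 5′ end of C05G5.2. mir-48 had one of rank 359 (signal 26.1, ranks 2136 and 219) at 301 bp upstream. mir-241 had one of rank 1283, 2275 bp upstream, which matched rank 24436 in replicate 1 but 194 in replicate 2. The strongest regions of lep-5, lin-4 and mir-84 ranked 2661, 6534 and 7232.

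**Figure D4:**
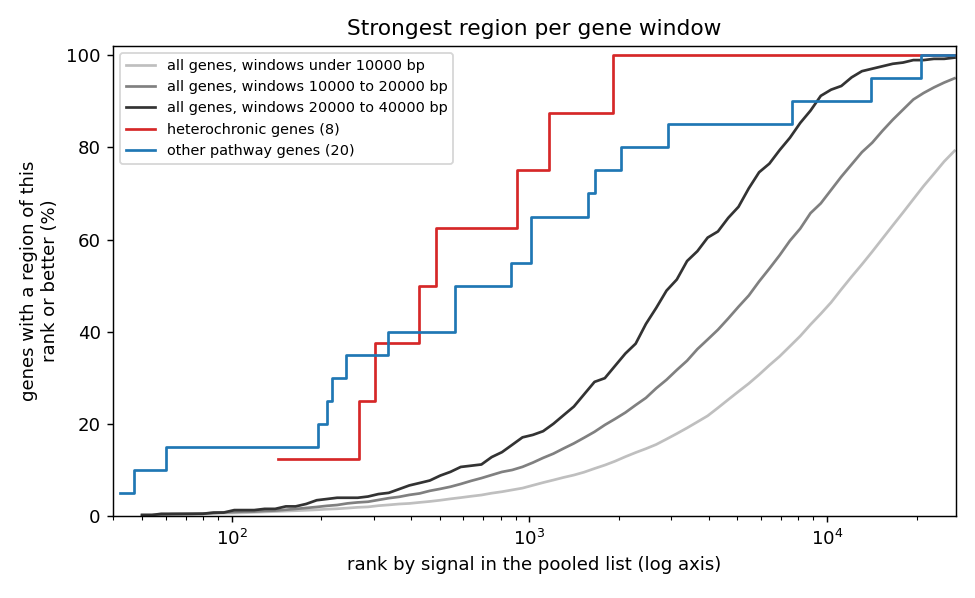
Share of genes (%) whose window holds a pooled region of a given rank or better (log axis), for the 8 heterochronic genes, the 20 other pathway genes and all genes in 3 classes of window length. At rank 1000 both named sets lie above the 3 curves of all genes. Such a region was held by 6 of the 8 members and 11 of the 20 others, against 7.45% of all genes.

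**Figure D5:**
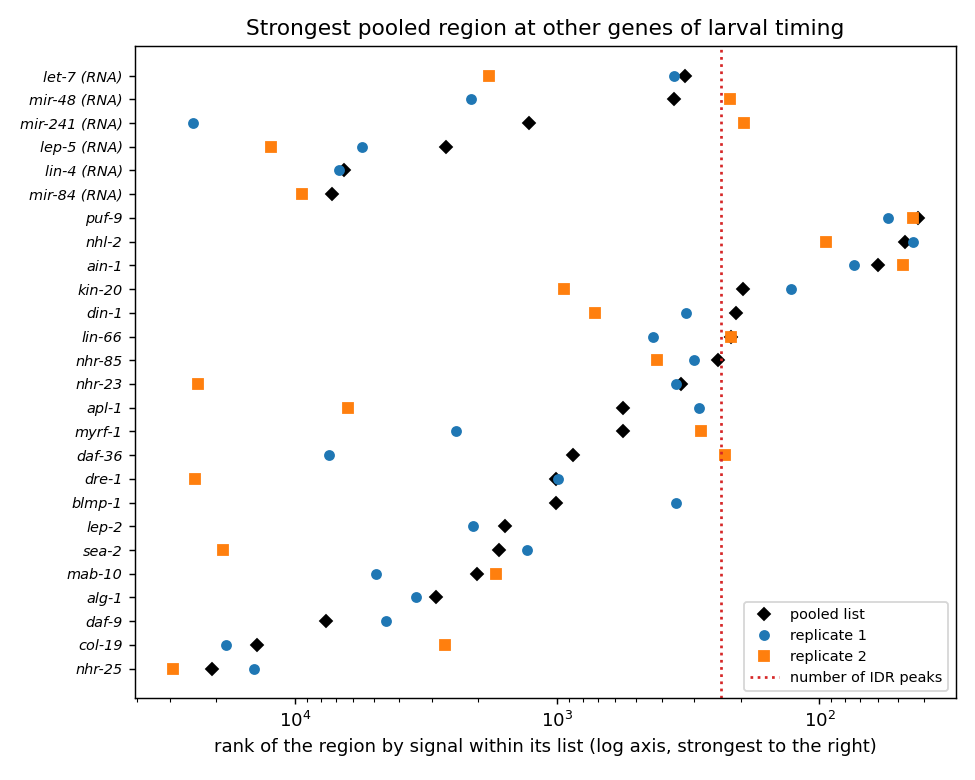
Rank by signal of the strongest pooled region at the 6 RNA genes and 20 protein-coding genes of the pathway, with the matching regions of each replicate (log axis, strongest to the right); a missing symbol means no matching region. puf-9, nhl-2 and ain-1 lie right of the dotted line, the number of IDR peaks, in all 3 lists.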

How the data were processed

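The authors deposited regions as narrowPeak lists for each replicate, for both replicates pooled, and after IDR. The deposited text notes say that IDR used the pooled list and both replicate lists, and that each list came from alignments together with a further file that the control-normalized tracks also use. The authors' signal per region has an unstated scale and the deposited −log10 q values tie at the top, so ranks by signal were used within lists. For aligner, caller and IDR threshold: not given in the sources used here. Only the ce11 lists were used, with the WBcel235 genome and Ensembl release 115; no region ran past a chromosome end. Windows, places (coding exon, UTR, intron, upstream), motif matches and counts were computed in Python 3.11.15. The length fit (statsmodels 0.14.6, negative binomial) was tested on simulated data. The members and lists were chosen with earlier results of these data known. The named genes were the members, the pathway genes with an IDR peak or a region of rank 1000 or better, nearest genes, and the 3 most like daf-12; dre-1, alg-1, daf-9, nhr-25 and the RNA genes outside that rule were picked once their values had been seen. Alternatives were other windows, overlap rules, thresholds and each replicate alone. Neighbouring windows can share regions.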

Additional observations from a re-analysis of the deposited data

How the results depend on the processing

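The daf-12 peak was the only IDR peak of the members with 2000 or 10000 bp upstream, with the gene body alone, by overlap in place of the summit, and without regions of other genes. With IDR peaks at or above the median signal, 0 members had one. With 1 replicate's list cut to the number of IDR peaks the count ran from 0 (replicate 2 alone) to 2 (replicate 1 alone, daf-12 and lin-42). The density per 10000 bp was 6.37 with 2000 bp upstream, 6.29 in gene bodies and 5.20 with 10000 bp upstream, and 5.05 to 5.80 with either replicate left out and the other's list cut to the 26787 strongest regions, as many as in the pooled list (uncut, 5.60 and 6.15). Regions found in both replicates numbered 23 by summits within 100 bp and 16 among the 10000 strongest of each, against 42 by 1 bp of overlap. Observed over fitted regions stayed above 1 for all 8 members without a term for X, in proportion to length and with 2000 bp upstream, from 1.37 (lin-28, in proportion to length) to 3.35 (hbl-1, 2000 bp upstream). Under alternatives chosen after the values were seen, the other pathway genes with an IDR peak numbered 1 in gene bodies alone (0.27% of all genes), 3 at or above the median signal (0.901%), and 4 to 6 with either replicate left out (1.9% and 1.92%). The members with a region of rank 1000 or better numbered 4 in gene bodies alone (1.85% of all genes) and 5 to 7 with either replicate left out (7.43% and 7.59%). In gene bodies alone the strongest ranks were 8371 for lin-41, 7104 for lin-46 and 6918 for hbl-1, since their strongest regions lie upstream. No paired analysis was possible because there was 1 group and no comparison between groups. Read depth is unknown, so its effect on weak regions is not known.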

Other observations

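Some regions of rank 1000 or better in a single replicate ranked far lower in the pooled list, or were not in it. In replicate 2 a region of rank 737 (signal 10.4), 2203 bp upstream of lin-28, overlapped no pooled region. Also in replicate 2, a region of rank 821 (signal 10.2), 2091 bp upstream of lin-46, overlapped a pooled region of rank 8639 that lay inside R186.3. In replicate 1 a region of rank 993 (signal 14.6) in lin-42 overlapped a pooled region of rank 6316. In the 3′ UTR of lin-14, 20293 bp from the start, replicate 1 had a region of rank 506 (signal 17.6), which overlapped the pooled region just past the end of that gene.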
